A study of Mus musculus with 15 samples.

Results

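G protein-coupled receptors (GPCRs) other than chemokine receptors were followed in mouse dendritic cells grown from bone marrow and measured by RNA sequencing. The members were the genes whose symbols begin with Gpr and a number, Adgr (adhesion receptors), Lpar, S1pr, P2ry, Ptger, Adora, Cnr, Hrh, Cysltr, Ltb4r, Hcar, Ffar, Fpr1 or Fpr2, without antisense or pseudogene symbols, and with at least 10 reads in at least 3 of the 15 libraries. Of 50554 genes counted, 150 had such a symbol and 102 had the reads. The symbols also take in intracellular or atypical 7-transmembrane proteins such as Gpr89, Gpr107 and Gpr137, which are described apart from the surface receptors. Just inside the limit lay Gpr174 with 75 reads in all libraries together and Gpr39 with 76, each with 10 or more reads in 3 libraries. Just outside lay Gpr152 with 64 reads and 1 such library. Of the 48 genes left outside, 18 had no read in any library. Of the 102 members 100 passed the count filter of the test, and Gpr174 and Adgrb2 did not.

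GPCRs are membrane proteins that pass a signal from an outside ligand to a heterotrimeric G protein, which then acts on adenylyl cyclase, phospholipase C or small GTPases. Kinases of the GRK family and arrestins switch off the active receptor, and RGS proteins shorten the life of the active G protein. In dendritic cells, receptors for prostaglandin E2, adenosine and histamine are known to raise cyclic AMP and to shape cytokine output and migration, while receptors for nucleotides, lysophospholipids, formyl peptides, oxysterols and fatty acid metabolites report tissue damage, microbes and position.

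The dendritic cells were grown from marrow for 9 days with 20 ng/mL GM-CSF, then held for 18 h either with no stimulus (US) or with 10 ng/mL lipopolysaccharide (LPS), the bacterial ligand of the receptor TLR4. Marrow donors carried the inducible recombinase CreERT2 and had received tamoxifen more than 12 weeks earlier, which deletes a floxed allele of Mysm1, a histone H2A deubiquitinase gene; this deleted allele (Δ) is common to all samples. The other allele was wild type in Δ/+ and encoded a catalytically dead protein in Δ/DN. There were 4 US and 3 LPS libraries of Δ/+, and 4 of each treatment for Δ/DN. By the codes in their names they came from 8 cultures, of which 7 gave both a US and an LPS library. Library names carry a 2 or a 3, treated here as library sets of unstated meaning: from Δ/+ all 3 LPS and 3 of the US libraries were in set 2 and 1 US library in set 3, and from Δ/DN each set had 2 libraries per treatment. The letters A and C stand for one genotype in the text of the series and for the other on the samples. Genotypes are given here as on the samples, and every direction between genotypes would turn round under the series text. Which animal gave which culture was not stated, so p-values measure the spread between these samples only.

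The libraries held between 37256651 and 104041282 counted reads, of which the members took 0.182% to 0.255%. A count of 3, the limit that 0 reads allow, came to 0.0288 to 0.0805 CPM (reads of a gene scaled by the size of its library) and covers counting error only. Mysm1 itself lay between 46.3 and 54.1 CPM in Δ/+ US and between 28.1 and 48.9 CPM in Δ/DN US; total reads do not tell the alleles apart. Δ/DN cultures 3 and 4 stood apart. Culture 4 had 1144 CPM (US) and 1166 CPM (LPS) of Xist, an RNA of female cells, where no other library exceeded 0.0645 CPM, and culture 3 had 1.94 and 3.69 CPM of the Y-linked Ddx3y, where the other cultures with Y-linked reads had 47.2 to 105 CPM. Summed neutrophil markers (11 genes, none at 0 in a group) reached 960 and 1133 CPM in Δ/DN culture 4, against 53 to 122 CPM in Δ/+ US and 58.6 to 114 CPM in Δ/+ LPS. Dendritic cell markers (10 genes) summed to 1156 to 1463 CPM in US and 2041 to 3335 CPM in LPS libraries, and none was at 0 in a group. The sum of 10 macrophage markers was 2092 to 2374 CPM in Δ/+ US and 2534 to 2762 CPM in Δ/DN US. B cell markers summed to at most 3.95 CPM. The 8 T and NK cell markers summed to 155 to 304 CPM in Δ/+ US and 86.9 to 152 CPM in Δ/DN US, without overlap, and Trac had no read in any group. Only 3 of the 8 passed the count filter. Markers of plasmacytoid dendritic cells summed to 46.8 to 183 CPM in US and 332 to 578 in LPS libraries, those of mast cells, basophils and eosinophils to 38.3 to 131 CPM in all (Cma1 and Tpsb2 at 0 in Δ/+ LPS), and those of haematopoietic progenitors to 21.6 to 51.4 CPM (Hoxa9 at 0 in Δ/DN LPS).

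Promoter windows show what lies just upstream of genes that the results turn on. RefSeq windows (build GRCm38.p6, from 250 bases before to 50 after a transcript start) were matched by symbol for 78 of the 102 members, and motifs were searched on both strands in all 32851 windows of the table. An NF-κB motif, the class bound by factors that TLR4 activates, was written GGGNNNTTCC and was present in 5.56% of all windows, in windows of 6.31% of all genes and of 10.3% of the matched members (8 of 78). Of 31 matched members called higher with LPS in at least 1 genotype, 3 held it (Gpr132, Gpr31b and Lpar2), of 20 called lower, 2 did (Adgrl1 and Gpr160), and of 25 called in neither direction, 3 did. A motif of PU.1, the transcription factor of myeloid cells, was written GAGGAAGT and occurred in 3.2% of all windows, in windows of 3.69% of all genes and of 14.1% of the matched members (11 of 78). The AP-1 motif TGANTCA was in windows of 8.97% of all genes (7.81% of windows) and of 12 matched members, the interferon response motif GAAANNGAAA in 3.99% (3.44%) and 7, and the cAMP response motif TGACGTCA in 2.03% (1.79%) and 1, S1pr2. A set of 6 windows follows, 5′ to 3′ on the strand of the gene, with the NF-κB motif in capitals in Gpr132, Lpar2 and Gpr160, the PU.1 motif in Adgre4 and Hrh2, and both in Gpr31b; a match in these letters is a description of sequence only.
Gpr132 (chr12:112860867-112861166, minus strand): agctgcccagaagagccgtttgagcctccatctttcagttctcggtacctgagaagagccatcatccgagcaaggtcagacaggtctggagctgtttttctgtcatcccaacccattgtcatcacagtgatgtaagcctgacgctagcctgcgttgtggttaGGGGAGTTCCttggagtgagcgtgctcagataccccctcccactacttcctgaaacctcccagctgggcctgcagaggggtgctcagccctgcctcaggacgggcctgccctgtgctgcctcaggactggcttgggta
Gpr31b (chr17:13052231-13052530, minus strand): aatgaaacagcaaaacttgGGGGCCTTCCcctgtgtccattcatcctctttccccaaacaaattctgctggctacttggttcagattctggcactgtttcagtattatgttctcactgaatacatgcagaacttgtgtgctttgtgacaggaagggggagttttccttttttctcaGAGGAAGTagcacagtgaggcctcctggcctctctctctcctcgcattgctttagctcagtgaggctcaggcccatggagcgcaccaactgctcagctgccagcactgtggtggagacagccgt
Lpar2 (chr8:69822315-69822614, plus strand): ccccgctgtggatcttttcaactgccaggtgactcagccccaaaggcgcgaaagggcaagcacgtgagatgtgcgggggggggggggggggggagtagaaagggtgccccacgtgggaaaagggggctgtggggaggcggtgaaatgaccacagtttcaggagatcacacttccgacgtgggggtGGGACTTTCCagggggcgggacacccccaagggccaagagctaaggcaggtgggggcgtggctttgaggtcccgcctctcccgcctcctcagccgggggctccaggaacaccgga
Gpr160 (chr3:30855700-30855999, plus strand): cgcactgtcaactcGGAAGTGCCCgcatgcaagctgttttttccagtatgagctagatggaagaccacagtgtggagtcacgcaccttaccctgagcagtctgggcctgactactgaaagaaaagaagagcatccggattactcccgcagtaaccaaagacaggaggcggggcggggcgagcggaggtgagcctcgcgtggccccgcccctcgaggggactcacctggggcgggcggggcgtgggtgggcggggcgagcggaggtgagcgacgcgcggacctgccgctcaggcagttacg
Adgre4 (chr17:55749734-55750033, plus strand): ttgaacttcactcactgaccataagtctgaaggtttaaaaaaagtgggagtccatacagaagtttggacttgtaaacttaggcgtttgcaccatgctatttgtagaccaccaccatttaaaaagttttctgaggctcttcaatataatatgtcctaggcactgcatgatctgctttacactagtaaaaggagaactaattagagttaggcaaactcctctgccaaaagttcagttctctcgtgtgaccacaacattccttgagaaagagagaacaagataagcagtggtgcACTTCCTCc
Hrh2 (chr13:54191883-54192182, plus strand): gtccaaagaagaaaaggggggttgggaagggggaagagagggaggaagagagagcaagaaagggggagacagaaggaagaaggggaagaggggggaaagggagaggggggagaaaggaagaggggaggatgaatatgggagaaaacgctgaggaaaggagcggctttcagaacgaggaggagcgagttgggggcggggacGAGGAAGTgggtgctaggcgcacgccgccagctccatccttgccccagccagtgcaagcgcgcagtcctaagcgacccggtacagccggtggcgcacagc

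LPS changed 58 of the receptor genes in Δ/+ and 63 in Δ/DN, and no member called in both changed in opposite directions. In Δ/+ 34 members rose and 24 fell out of 100 tested, where 22.4% of all genes tested rose and 25.3% fell. In Δ/DN 36 rose and 27 fell, beside 23.1% and 25.1% of all genes. LPS counts of single lists below can be set beside the same shares. The median log2 change of the members was -0.07 in Δ/+ and 0.04 in Δ/DN, close to the medians of all genes of -0.08 and -0.09. Called means an adjusted p under 0.05 in edgeR's quasi-likelihood test with Benjamini-Hochberg adjustment over 20865 genes, which gives every adjusted p below; log2 changes carry their standard error (SE), and CPM are scaled by TMM. Among the members 33 rose in both genotypes, 22 fell in both, 11 were called in 1 genotype only, and 0 had calls of opposite sign. Of the 33, 32 were higher with LPS in each of the 7 cultures with both treatments (Gpr161 in 6), and of the 22, 21 were lower in each (Adgrl1 in 6). Leaving out 1 library at a time kept 48 of the 58 calls in Δ/+ in all 7 refits and 53 of the 63 in Δ/DN in all 8. Of the 102 members 30 were called in no comparison, among them Gpr183, the oxysterol receptor that positions dendritic cells in lymphoid tissue, with 16.9 ± 6.33 CPM without (SD, n = 4) and 21.8 ± 7.39 CPM (n = 3) with LPS in Δ/+.

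**Figure D1:**
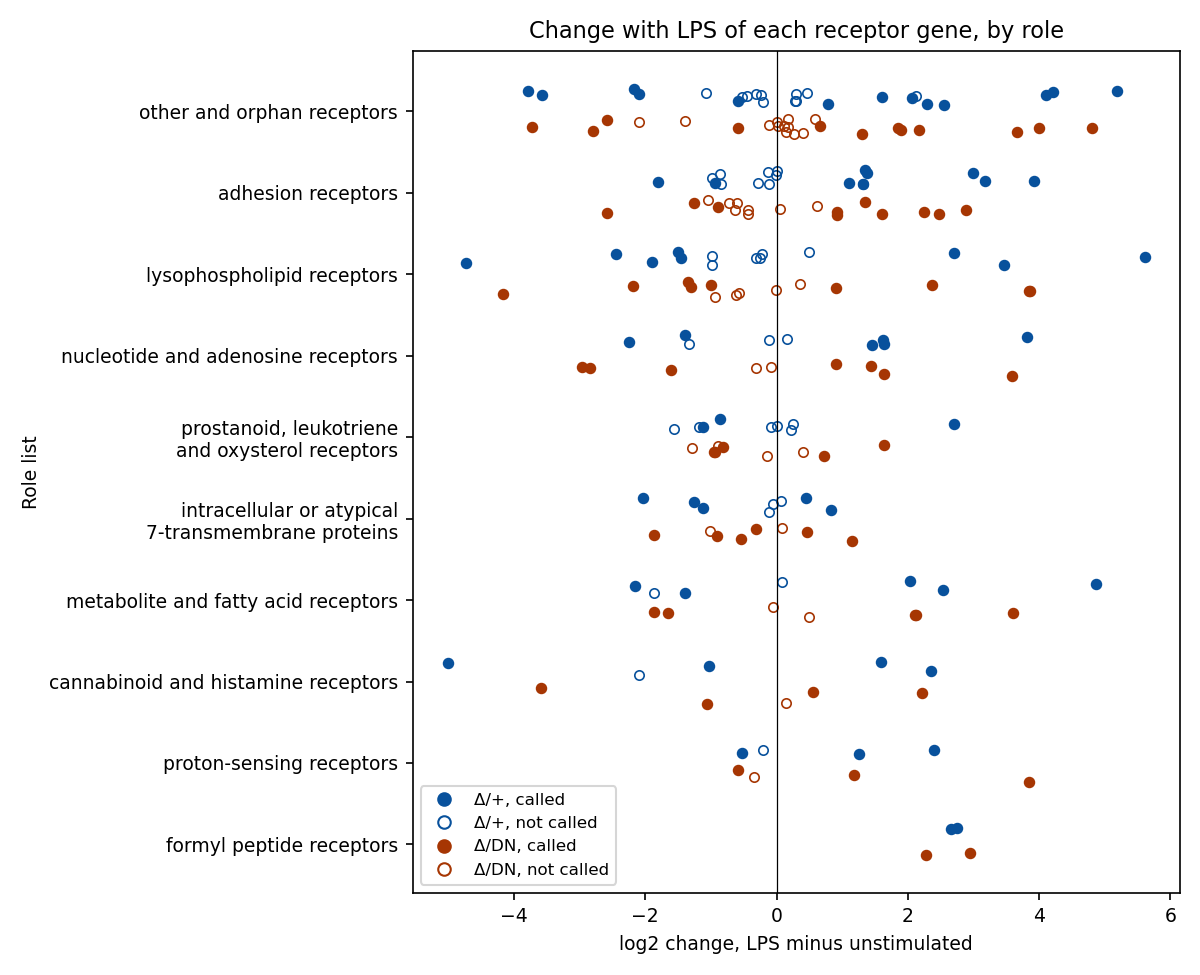
Log2 change with LPS (x axis) of each of the 100 members tested, in rows by role, in Δ/+ (blue) and Δ/DN (brown). Filled points passed the test; both formyl peptide receptors lie above 2 in both genotypes, and the lowest points are Cnr2 at -5.01 in Δ/+ and Lpar5 at -4.16 in Δ/DN.

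Receptor genes differed widely in level. The mean over libraries was under 1 CPM for 33 members, between 1 and 10 CPM for 28 and at least 10 CPM for 41. Levels can be set against each other only per length. Per kilobase of merged exons Fpr2 (108 CPM per kilobase) and Fpr1 (89) lay highest, followed by Hcar2 (51.2), Adora2b (38.6), the macrophage surface antigen gene Adgre1 (38.4), Gpr84 (37.6) and Gpr132 (37.3). The first 4 had the same order by the deposited gene length. For Gpr84 and Gpr132 that length gave 13.3 and 13.4, and the deposited length of 31 members exceeded the whole gene in the reference annotation, so merged exon lengths (100 members with one, GRCm38) were added after seeing the data.

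**Figure D2:**
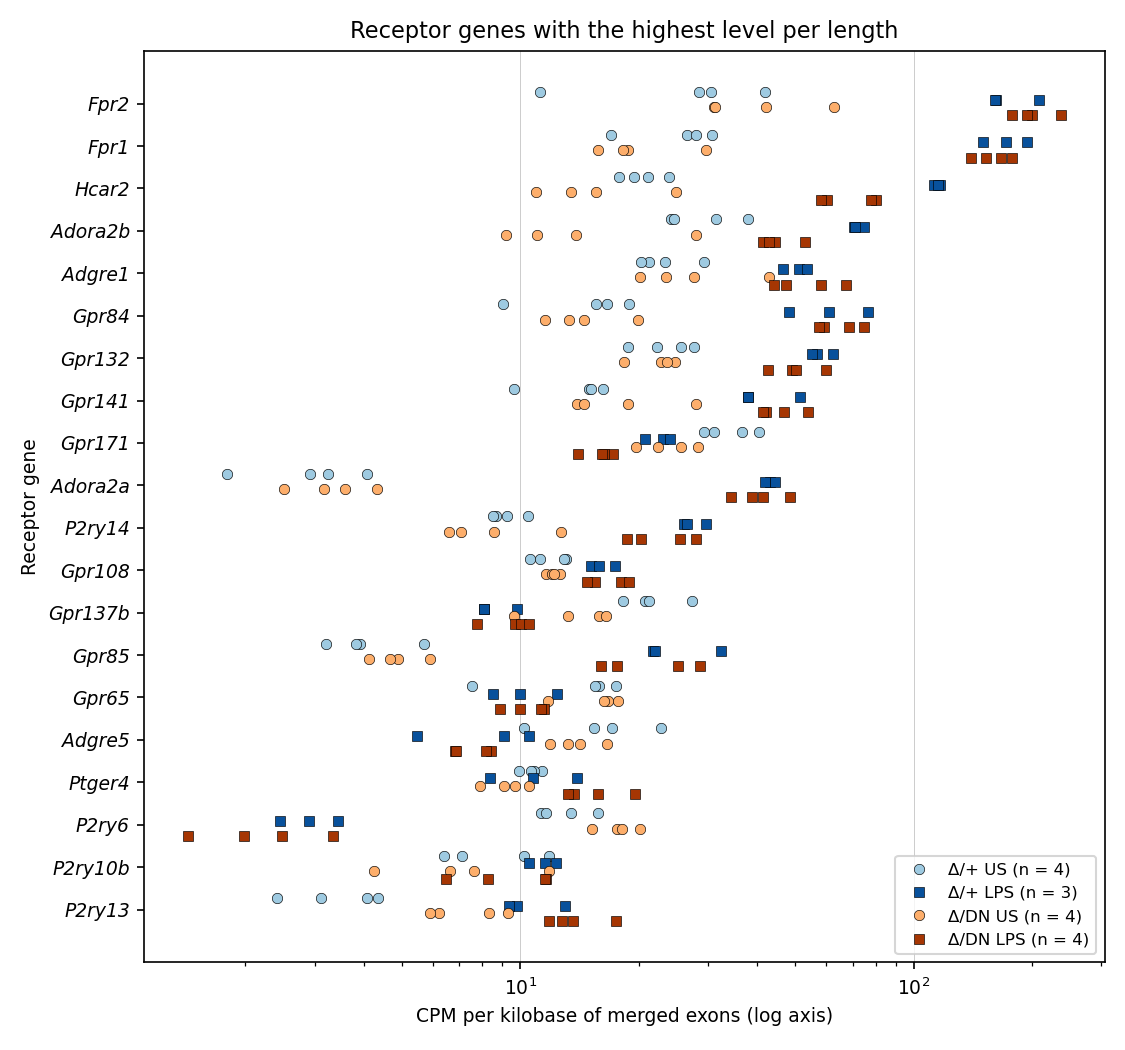
Level in CPM per kilobase of merged exons (x axis, log scale) of the 20 members with the highest mean, 1 point per library, circles for US and squares for LPS. In Fpr2, Fpr1, Hcar2, Gpr84 and Adora2a every LPS library lies right of every US library, and in P2ry6 every LPS library lies left of every US library.

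Between genotypes fewer members differed, and without LPS more were higher than lower in Δ/DN. Without LPS 14 of 100 were higher in Δ/DN and 6 lower, where 5.01% of all genes were higher and 5.45% lower. With LPS 8 were higher and 5 lower, beside 5.37% and 3.23% of all genes, among which higher calls also outnumbered lower ones. The members' median log2 difference was 0.31 in both comparisons, beside 0.01 over all genes tested. Adgre4 was higher, and Adgrl2, Adora2b, Gpr171 and Ptger2 were lower, in both comparisons, which use libraries of the same cultures; these are 5 of the 20 calls without LPS and 5 of the 13 with LPS. In bulk RNA, fewer cells of a type and less RNA per cell cannot be told apart.

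The genotype calls rested on few libraries. Over the refits that each left out 1 library of the comparison, Hrh2 alone of the 20 kept its call without LPS in all 8, and Ptger2 alone of the 13 with LPS in all 7. The counts without LPS went to 2 higher and 0 lower without Δ/+ US replicate 4, which alone stands for Δ/+ in set 3, to 4 higher without Δ/+ US replicate 2, and to 1 higher and 4 lower without Δ/DN US replicate 2. Leaving out Δ/DN US replicate 4 gave 6 higher and leaving out Δ/+ US replicate 1 gave 7, and each of Δ/+ LPS replicates 1 and 3, which enter the same model, gave 9. With LPS they went to 0 higher and 1 lower without Δ/+ LPS replicate 2, to 1 and 2 without Δ/DN LPS replicate 2, to 3 and 2 without Δ/+ LPS replicate 1, and to 7 and 2 without Δ/+ LPS replicate 3. Without Δ/DN culture 3 there were 19 higher and 8 lower in US and 10 and 7 in LPS libraries, and without culture 4, whose neutrophil markers were high, 9 and 6 in each. Adgrf1, Adgrl3, Gpr137, Lpar5 and P2ry12 lost their US call without culture 4 (adjusted p from 0.0535 to 0.0767), and Adgrg6 its LPS call without culture 3 (0.0579) or culture 4 (0.0548). The macrophage marker sum was higher in Δ/DN without overlap, the neutrophil sum reached higher in Δ/DN but overlapped, and the sum of 10 stromal and endothelial markers was lower without overlap (16.4 to 27.6 CPM in Δ/DN US against 34.8 to 52.8 in Δ/+ US, none of the genes at 0). Single stromal and endothelial genes went both ways without LPS: Col1a2 (log2 difference 2.48, adjusted p = 0.045) and Sparc (2.57, adjusted p = 0.0221) were higher in Δ/DN, Lepr (-1.08, adjusted p = 0.00933) and Pecam1 (-1.11, adjusted p = 0.0162) lower. The T and NK cell sum was lower in Δ/DN US without overlap, but only 3 of its 8 genes passed the count filter. Of these, Il7r was lower in Δ/DN without LPS (-0.89, adjusted p = 0.0291). Cd3e (0.45, adjusted p = 0.889) and Klrb1c (1.32, adjusted p = 0.192) went the other way and were not called. With LPS the macrophage sums were 1975 to 2049 CPM in Δ/+ and 2261 to 2924 in Δ/DN, and the stromal and endothelial sums 118 to 158 and 47.7 to 89.5. Sums of 4 more lists parted the genotypes with LPS. T and NK cell markers lay at 285 to 315 CPM in Δ/+ and 139 to 252 in Δ/DN (Trac at 0 in both, Cd3g in Δ/+), and plasmacytoid dendritic cell markers at 517 to 578 and 332 to 508. With LPS Pacsin1 of the plasmacytoid list was higher in Δ/DN (2.22, adjusted p = 0.0289), against the direction of the sum. The other 5 genes of that list were not called and went both ways, from -0.41 for Bst2 to 0.28 for Ly6d. None of the 3 T and NK cell genes tested was called with LPS. Mast cell, basophil and eosinophil markers lay at 43.9 to 52.5 CPM in Δ/+ and 64.4 to 131 in Δ/DN, and progenitor markers at 21.6 to 25.6 and 27.3 to 51.4. Of the progenitor genes, Cd34 was higher (2.45, adjusted p = 0.0488) and Meis1 lower (-1.05, adjusted p = 0.036) in Δ/DN with LPS. Dendritic cell marker sums overlapped between genotypes, at 1156 to 1367 CPM in Δ/+ US and 1198 to 1463 in Δ/DN US. Of these 10 genes 3 were higher and 0 lower in Δ/DN without LPS: Xcr1 (2.64, adjusted p = 0.0183), Kmo (2.06, adjusted p = 0.0125) and Dpp4 (1.24, adjusted p = 0.0459). With LPS the sums overlapped too, and 1 gene was called, Dpp4 (1.44, adjusted p = 0.0494). The part of these cell type markers in the receptor differences was not tested.

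**Figure D3:**
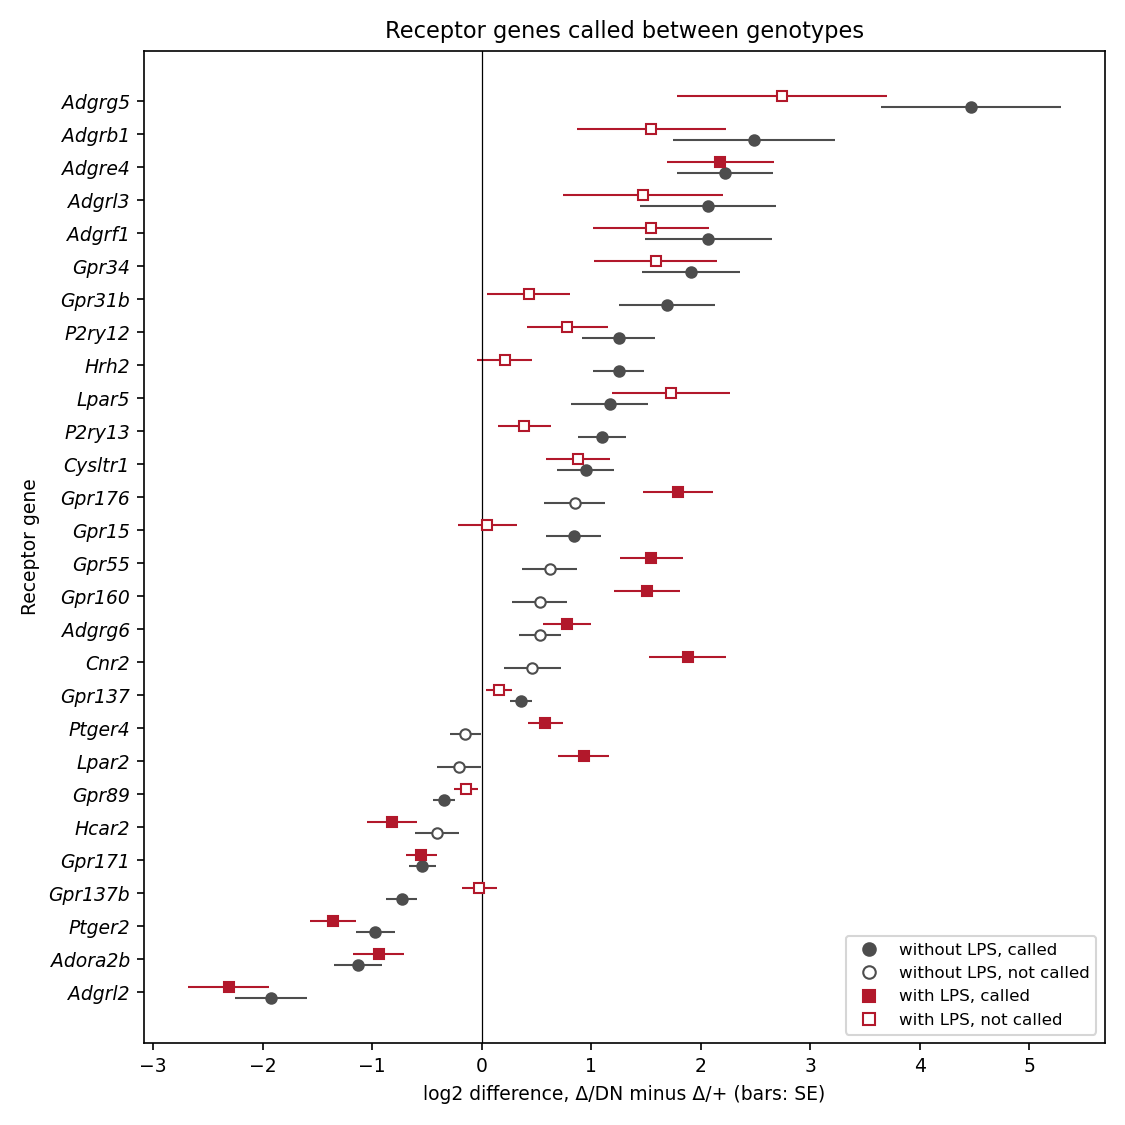
Log2 difference of Δ/DN from Δ/+ (x axis, bars are SE) for the 28 members called in either genotype comparison, without LPS (grey circles) and with LPS (red squares), filled where called. Adgrg5 lies highest at 4.47 and Adgrl2 lowest at -2.31; most points lie right of 0.

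Formyl peptide receptors sense N-formylated peptides of bacteria and mitochondria, and both genes rose. Fpr1 lay at 40.7, 35.1, 37.1 and 22.5 CPM in the Δ/+ US libraries (replicates in order) and at 227, 198 and 257 CPM with LPS. Its Δ/DN values were 20.9, 24.9, 39.2 and 24.1 CPM in US and 185, 220, 202 and 235 CPM in LPS libraries. Every LPS library exceeded every US library, with log2 changes of 2.75 ± 0.22 (adjusted p = 3.3e-07) in Δ/+ and 2.95 ± 0.22 (adjusted p = 1.5e-07) in Δ/DN. Fpr2 lay at 39.6, 36.9, 54.4 and 14.5 CPM in Δ/+ US and 210, 209 and 269 in Δ/+ LPS libraries, and at 40.3, 40.4, 81.1 and 54.7 CPM in US and 259, 230, 252 and 307 CPM in LPS libraries of Δ/DN. Again the treatments did not overlap, and the changes were 2.66 ± 0.37 (adjusted p = 6.1e-05) and 2.28 ± 0.35 (adjusted p = 0.000145). Neither gene was called between genotypes. Fpr2 shares an exon with Fpr3 in the reference annotation, so some of its reads are uncertain.

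Receptors for adenosine and nucleotides moved in both directions. Of 9 tested, 4 rose with LPS in both genotypes (Adora2a, Adora2b, P2ry13 and P2ry14), while 2 fell in Δ/+ and 3 in Δ/DN. Adora2a, an adenosine receptor coupled to cyclic AMP, lay at 12.5, 9.93, 8.93 and 5.5 CPM in Δ/+ US and at 132, 128 and 136 CPM in Δ/+ LPS libraries. The Δ/DN values were 9.68, 11, 13.2 and 7.66 CPM without and 127, 119, 148 and 105 CPM with LPS, so that groups of a treatment overlapped between genotypes and treatments lay far apart. The log2 changes of 3.81 ± 0.23 (adjusted p = 3.3e-08) in Δ/+ and 3.58 ± 0.22 (adjusted p = 4.2e-08) in Δ/DN were the largest of the 4.

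Adora2b, the low-affinity adenosine receptor, rose with LPS too but was lower in Δ/DN. Its Δ/+ values were 44.6, 58.1, 45.3 and 70.1 CPM in US and 130, 138 and 131 CPM in LPS libraries. The Δ/DN libraries had 20.4, 17, 51.5 and 25.6 CPM in US and 81.9, 76.4, 97.7 and 79.2 CPM in LPS libraries. With LPS every Δ/DN library lay below every Δ/+ library, whereas without LPS the Δ/DN culture 3 library, at 51.5 CPM, fell among the Δ/+ values. The genotype differences were -1.13 ± 0.22 (adjusted p = 0.0102) without and -0.94 ± 0.23 (adjusted p = 0.0301) with LPS. Without LPS Adora2b was called in 6 of 8 such refits, not without Δ/+ US replicate 4, nor Δ/DN US replicate 2 (adjusted p up to 0.0652), and lay at -1.42 (adjusted p = 0.000363) in library set 2 alone. With LPS it was called in 3 of 7 such refits, not without Δ/+ LPS replicates 1, 2 or 3, nor Δ/DN LPS replicate 2 (adjusted p up to 0.122), and lay at -0.75 (adjusted p = 0.00892) in library set 2 alone. This call was lost with no library set term (-0.67, adjusted p = 0.178) and with no low-count filter (adjusted p = 0.0775). LPS raised it by 1.45 ± 0.23 (adjusted p = 0.000114) in Δ/+ and 1.63 ± 0.21 (adjusted p = 2.5e-05) in Δ/DN.

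P2ry12, P2ry13 and P2ry14 are Gi-coupled receptors, the first pair for ADP and P2ry14 for UDP-glucose; they and Gpr171 lie within the gene Med12l, so their reads are certain only if strand was used in counting, which no source used here states. P2ry13 lay at 10.3, 7.89, 11 and 6.09 CPM in Δ/+ US and 15.7, 21.1, 14.9 and 23.5 CPM in Δ/DN US libraries, without overlap. With LPS the values were 24.8, 23.6 and 32.8 CPM in Δ/+ and 32.2, 29.9, 34.5 and 44.2 CPM in Δ/DN. It was higher in Δ/DN without LPS by 1.10 ± 0.22 (adjusted p = 0.011), and with LPS the difference was 0.39 ± 0.24 (adjusted p = 0.35). Without LPS P2ry13 was called in 6 of 8 such refits, not without Δ/+ US replicate 4, nor Δ/DN US replicate 2 (adjusted p up to 0.066), and lay at 0.90 (adjusted p = 0.0209) in library set 2 alone. LPS raised it by 1.62 in Δ/+ and 0.91 in Δ/DN. P2ry12 lay at 1.33, 1.13, 2.28 and 0.547 CPM in Δ/+ US and 2.16, 4.16, 1.95 and 2.3 CPM in Δ/DN US. One Δ/+ library, replicate 3, fell within the Δ/DN range. Its difference was 1.25 ± 0.33 (adjusted p = 0.0304) and it was called in 3 of 8 such refits, not without Δ/+ US replicates 1, 2 or 4, nor Δ/DN US replicates 2 or 4 (adjusted p up to 0.167), and lay at 0.97 (adjusted p = 0.184) in library set 2 alone. With LPS P2ry12 lay at 1.38, 1.24 and 2.2 CPM in Δ/+ and 3.34, 1.8, 1.92 and 1.49 CPM in Δ/DN, and no LPS effect was called. P2ry14 lay at 96.2, 94.2, 102 and 116 CPM in Δ/+ US and 289, 294 and 327 in Δ/+ LPS libraries. In the Δ/DN cultures it lay at 78.1, 72.8, 140 and 95 CPM in US and 309, 224, 281 and 206 CPM in LPS libraries. Every LPS library was above every US library, by 1.64 ± 0.18 (adjusted p = 3.6e-06) in Δ/+ and 1.44 ± 0.17 (adjusted p = 6.9e-06) in Δ/DN.

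P2ry6, a Gq-coupled receptor for UDP, fell with LPS. It lay at 32.5, 33.5, 45.4 and 38.9 CPM in Δ/+ US and 8.37, 9.96 and 7.09 CPM in Δ/+ LPS libraries. The Δ/DN values were 50.9, 58.1, 43.8 and 52.3 CPM in US and 7.16, 9.65, 4.13 and 5.72 CPM in LPS libraries. No LPS library reached a US library in either genotype, and the changes were -2.24 ± 0.22 (adjusted p = 1.2e-06) and -2.97 ± 0.20 (adjusted p = 4.8e-08). P2ry1, an ADP receptor, fell by 1.39 in Δ/+ and by 1.60 in Δ/DN on the log2 scale. Adora3 was called only in Δ/DN, at -2.84 ± 0.68 (adjusted p = 0.00318) beside -1.34 ± 0.78 (adjusted p = 0.182) in Δ/+, from a mean of 1.56 to 0.214 CPM; the difference of the effects was -1.50 ± 1.03 (adjusted p = 0.732).

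Receptors for prostaglandins and leukotrienes included the cyclic AMP-raising prostaglandin E2 receptors, of which Ptger2 was lower and Ptger4 higher in Δ/DN with LPS. Of 9 tested, 1 rose and 2 fell in Δ/+, and 2 rose and 3 fell in Δ/DN. Ptger2 lay at 13, 17.3, 10.9 and 21.1 CPM in Δ/+ US and at 6.83, 8.53, 9.76 and 9.65 CPM in Δ/DN US libraries. After LPS the values were 17.5, 20.1 and 11.7 CPM in Δ/+ and 6.37, 5.37, 9.81 and 11 CPM in Δ/DN. Under both treatments every Δ/DN library lay below every Δ/+ library, with differences of -0.97 ± 0.18 (adjusted p = 0.00883) without and -1.36 ± 0.21 (adjusted p = 0.00513) with LPS. Without LPS Ptger2 was called in 7 of 8 such refits, not without Δ/+ US replicate 4 (adjusted p up to 0.0557), and lay at -0.85 (adjusted p = 0.0669) in library set 2 alone. With LPS it was called in all 7 refits that each left out 1 library (adjusted p up to 0.0399), and lay at -1.48 (adjusted p = 0.0111) in library set 2 alone. No LPS effect on Ptger2 was called, at 0.25 ± 0.19 (adjusted p = 0.324) in Δ/+ and -0.14 ± 0.18 (adjusted p = 0.546) in Δ/DN.

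Ptger4 lay at 75.3, 72.2, 70.6 and 66.1 CPM in Δ/+ US and 60.3, 64.5, 70 and 52.5 CPM in Δ/DN US libraries, which overlapped. With LPS the Δ/+ libraries lay at 71.8, 55.8 and 92.7 CPM and the Δ/DN libraries at 105, 130, 91.1 and 87.8 CPM. Replicate 3 of Δ/+ LPS fell within the Δ/DN range and the other two lay below it. The genotype difference with LPS was 0.58 ± 0.16 (adjusted p = 0.0419) and without LPS -0.15 ± 0.14 (adjusted p = 0.562). Ptger4 with LPS was called in 3 of 7 such refits, not without Δ/+ LPS replicates 1 or 2, nor Δ/DN LPS replicates 1 or 2 (adjusted p up to 0.184), and lay at 0.68 (adjusted p = 0.0371) in library set 2 alone. LPS raised it in Δ/DN by 0.73 ± 0.14 (adjusted p = 0.00054), while the change in Δ/+ was 0.00 ± 0.15 (adjusted p = 0.998). Reads of Ptger4 may be shared with the overlapping gene Ttc33. Ptger1, a calcium-coupled prostaglandin E2 receptor whose reads are uncertain if strand was not used in counting, lay at 2.14, 1.83, 2.06 and 1.85 CPM in Δ/+ US and 1.01, 0.645 and 1.05 CPM in Δ/+ LPS libraries, and at 2.5, 1.48, 1.8 and 1.58 CPM in US and 1.13, 0.518, 1.22 and 0.898 CPM in LPS libraries of Δ/DN. It fell without overlap of the treatments, with changes of -1.12 ± 0.31 (adjusted p = 0.00693) in Δ/+ and -0.96 ± 0.27 (adjusted p = 0.00908) in Δ/DN.

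The receptors for cysteinyl leukotrienes moved apart with LPS. Cysltr1 lay at 14, 12.3, 23.1 and 8.15 CPM in Δ/+ US and 7.39, 6.72 and 10.6 CPM in Δ/+ LPS libraries. Values in Δ/DN were 22.8, 30.1, 23.1 and 26.2 CPM in US and 13, 15.4, 9.59 and 15.5 CPM in LPS libraries. Δ/DN replicates 2, 3 and 4 lay at 23.1 CPM or more, a level that only Δ/+ replicate 3 reached, and the genotype difference was 0.95 ± 0.26 (adjusted p = 0.0332). Without LPS Cysltr1 was called in 3 of 8 such refits, not without Δ/+ US replicates 1, 2 or 4, nor Δ/DN US replicates 2 or 4 (adjusted p up to 0.189), and lay at 0.66 (adjusted p = 0.196) in library set 2 alone. It fell with LPS, at -0.86 ± 0.27 (adjusted p = 0.0174) in Δ/+, where it was called in 4 of 7 such refits, not without Δ/+ LPS replicates 1 or 2, nor Δ/+ US replicate 3 (adjusted p up to 0.0774), and at -0.94 ± 0.24 (adjusted p = 0.00571) in Δ/DN. Cysltr2 lay at 1.53, 1.5, 1.66 and 1.82 CPM in Δ/+ US and 9.2, 11.9 and 9.39 CPM in Δ/+ LPS libraries, and at 1.63, 1.98, 2.6 and 2.01 CPM in US and 7.07, 5.03, 9.81 and 3.56 CPM in LPS libraries of Δ/DN. All LPS values lay above all US values, with changes of 2.71 ± 0.27 (adjusted p = 1.5e-06) and 1.64 ± 0.25 (adjusted p = 6.9e-05). The leukotriene B4 receptor Ltb4r1 was called only in Δ/DN, at -0.82 ± 0.20 (adjusted p = 0.00325); the change in Δ/+ was -0.09 ± 0.22 (adjusted p = 0.772) and the difference of the effects -0.73 ± 0.29 (adjusted p = 0.473).

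Among receptors for cannabinoids and histamine, Cnr2 fell with LPS in both genotypes. Cnr2, the peripheral cannabinoid receptor, lay at 20.9, 20.2, 28.3 and 23.9 CPM in Δ/+ US and at 0.873, 0.484 and 0.733 CPM in Δ/+ LPS libraries. Δ/DN cells gave 29, 37.2, 24.5 and 42.1 CPM in US and 1.9, 2.63, 1.94 and 4.62 CPM in LPS libraries. All LPS values lay under all US values, and with LPS every Δ/DN library lay above every Δ/+ library. LPS lowered Cnr2 by 5.01 ± 0.36 on the log2 scale in Δ/+ (adjusted p = 1.6e-07) and changed it by -3.59 ± 0.29 (adjusted p = 4.1e-07) in Δ/DN. The genotype difference was 1.88 ± 0.35 (adjusted p = 0.012) with LPS and 0.46 ± 0.26 (adjusted p = 0.292) without. With LPS Cnr2 was called in 5 of 7 such refits, not without Δ/+ LPS replicate 2, nor Δ/DN LPS replicate 2 (adjusted p up to 0.0757), and lay at 1.69 (adjusted p = 0.00851) in library set 2 alone.

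Hrh2, the histamine receptor that raises cyclic AMP, was higher in Δ/DN without LPS. It lay at 1.96, 2.72, 3.47 and 1.42 CPM in Δ/+ US and 4.87, 5.23, 5.85 and 6.49 CPM in Δ/DN US libraries, without overlap. LPS libraries had 6.27, 7.64 and 8 CPM in Δ/+ and 8.36, 7.53, 8.63 and 8.55 CPM in Δ/DN, where the ranges met. The difference was 1.25 ± 0.23 (adjusted p = 0.00834) without and 0.21 ± 0.25 (adjusted p = 0.646) with LPS. Without LPS Hrh2 was called in all 8 refits that each left out 1 library (adjusted p up to 0.046), and lay at 0.86 (adjusted p = 0.0418) in library set 2 alone. LPS raised it by 1.59 ± 0.23 (adjusted p = 4.7e-05) in Δ/+ and by 0.56 ± 0.21 (adjusted p = 0.0412) in Δ/DN, where it was called in 3 of 8 such refits, not without Δ/DN LPS replicates 1, 3 or 4, nor Δ/DN US replicates 1 or 2 (adjusted p up to 0.121). Gpr18, which binds arachidonoyl glycine and lies within Ubac2, lay at 0.72, 0.728, 0.999 and 0.722 CPM in Δ/+ US and 3.27, 3.76 and 5.2 CPM in Δ/+ LPS libraries. In Δ/DN it lay at 0.704, 1.26, 1.09 and 0.816 CPM in US and 3.62, 4.57, 4.09 and 5.73 CPM in LPS libraries. All LPS values were above all US values, by 2.36 ± 0.26 (adjusted p = 3.0e-06) and 2.22 ± 0.24 (adjusted p = 3.0e-06). Hrh1, the calcium-coupled histamine receptor, fell by 1.03 in Δ/+ and by 1.06 in Δ/DN on the log2 scale. In Δ/+ Hrh1 was called in 5 of 7 such refits, not without Δ/+ LPS replicates 2 or 3 (adjusted p up to 0.0909), and in Δ/DN it was called in 7 of 8 such refits, not without Δ/DN US replicate 2 (adjusted p up to 0.0516).

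Lysophospholipid receptors bind lysophosphatidic acid (Lpar genes), sphingosine 1-phosphate (S1pr genes), lysophosphatidylserine (Gpr34) or lysophosphatidylinositol (Gpr55). Of 14 tested, 3 rose and 5 fell with LPS in Δ/+, and 4 rose and 5 fell in Δ/DN. Lpar1 rose by 3.47 ± 0.41 (adjusted p = 1.3e-05) in Δ/+, from a mean of 2.14 to 23.7 CPM, and by 3.84 ± 0.40 (adjusted p = 5.2e-06) in Δ/DN. S1pr3 rose from 12.7 ± 4.14 CPM (SD, n = 4) to 83.1 ± 3.56 CPM (n = 3) in Δ/+ and from 10.4 ± 1.17 to 53.6 ± 10.7 CPM (n = 4 each) in Δ/DN. In contrast S1pr2 and S1pr4 fell, by 1.45 and 1.89 in Δ/+ and by 1.00 and 1.35 in Δ/DN on the log2 scale. Lpar6, within the gene Rb1, fell by 2.44 and 2.19. S1pr1, the receptor for exit from tissue into lymph, was not called in any comparison, at 1.35 CPM in Δ/+ US and 0.737 CPM with LPS.

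Lpar4 and Lpar5 marked the extremes of the family. Lpar4 was near the counting floor without LPS, at 0, 0.0239, 0.0278 and 0 CPM in Δ/+ and 0.0364, 0, 0.026 and 0.0672 CPM in Δ/DN. The values with LPS were 0.913, 0.838 and 0.55 CPM in Δ/+ and 0.567, 0.311, 0.941 and 0.177 CPM in Δ/DN, all above the US values. The fitted changes of 5.61 ± 0.86 (adjusted p = 7.2e-05) and 3.86 ± 0.74 (adjusted p = 0.000519) rest on few US reads and depend on the prior count. Lpar5 went down, from 3.38, 2.82, 6.39 and 2.87 CPM in Δ/+ US to 0.164, 0.193 and 0.0916 CPM in Δ/+ LPS libraries. In Δ/DN it went from 8.02, 11.6, 4.23 and 10.3 CPM to 0.4, 0.296, 0.449 and 0.709 CPM. The changes were -4.73 ± 0.50 (adjusted p = 3.0e-06) and -4.16 ± 0.40 (adjusted p = 1.4e-06). Without LPS Lpar5 was higher in Δ/DN by 1.17 ± 0.35 (adjusted p = 0.0486), with overlap through Δ/+ replicate 3 and Δ/DN replicate 3. Lpar5 was called in 2 of 8 such refits, not without Δ/+ US replicates 1, 2 or 4, nor Δ/DN US replicates 1, 2 or 4 (adjusted p up to 0.218), and lay at 1.20 (adjusted p = 0.0574) in library set 2 alone.

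Lpar2 differed between genotypes with LPS. It lay at 1.29, 1.63, 1.2 and 1.45 CPM in Δ/+ US and 1.18, 1.2, 1.03 and 1.65 CPM in Δ/DN US libraries, which overlapped. With LPS it lay at 1.16, 1.06 and 1.2 CPM in Δ/+ and 2.22, 1.83, 2.92 and 2.62 CPM in Δ/DN, without overlap. The genotype difference was 0.93 ± 0.23 (adjusted p = 0.0292) with and -0.21 ± 0.20 (adjusted p = 0.573) without LPS. With LPS Lpar2 was called in 2 of 7 such refits, not without Δ/+ LPS replicates 1, 2 or 3, nor Δ/DN LPS replicates 1 or 2 (adjusted p up to 0.129), and lay at 0.82 (adjusted p = 0.0606) in library set 2 alone. LPS raised it in Δ/DN by 0.91 ± 0.20 (adjusted p = 0.00133), while the change in Δ/+ was -0.22 ± 0.22 (adjusted p = 0.434). Gpr55 lay at 10.1, 7.16, 7.84 and 6.58 CPM in Δ/+ US and 3.79, 1.93 and 3.36 CPM in Δ/+ LPS libraries. Its Δ/DN values were 9.94, 17.7, 8.21 and 9.43 CPM in US and 6.24, 11.4, 5.15 and 7.48 CPM in LPS libraries, the latter all above the Δ/+ LPS values. It fell in Δ/+ by 1.50 ± 0.28 on the log2 scale (adjusted p = 0.00048), the change in Δ/DN was -0.57 ± 0.24 (adjusted p = 0.0698), and the genotype difference with LPS was 1.55 ± 0.29 (adjusted p = 0.0115). Gpr55 with LPS was called in 5 of 7 such refits, not without Δ/+ LPS replicate 2, nor Δ/DN LPS replicate 2 (adjusted p up to 0.0672), and lay at 1.54 (adjusted p = 0.0299) in library set 2 alone. Gpr34, within Cask, was low, at 0.633, 0.31, 0.564 and 0.396 CPM in Δ/+ US and 1.08, 3.95, 0.52 and 1.33 CPM in Δ/DN US libraries. Replicate 2 of Δ/DN was far above the rest and replicate 3 overlapped the Δ/+ range. After LPS the values were 0.273, 0.258 and 0.262 CPM in Δ/+ and 0.45, 0.784, 0.59 and 0.685 CPM in Δ/DN. Without LPS the difference was 1.91 ± 0.45 (adjusted p = 0.0195); Gpr34 was called in 5 of 8 such refits, not without Δ/+ US replicates 2 or 4, nor Δ/DN US replicate 2 (adjusted p up to 0.122), and lay at 2.32 (adjusted p = 0.0247) in library set 2 alone. In Δ/DN it fell with LPS, at -1.31 ± 0.45 (adjusted p = 0.0254), where it was called in 4 of 8 such refits, not without Δ/DN LPS replicates 1 or 2, nor Δ/DN US replicates 2 or 4 (adjusted p up to 0.161), beside -0.99 ± 0.53 (adjusted p = 0.145) in Δ/+.

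Among receptors for metabolites and fatty acids, 3 of 7 rose (Gpr31b, Gpr84 and Hcar2) and 2 fell (Ffar2 and Gpr35) in both genotypes. Hcar2, the receptor for nicotinic acid and the ketone body beta-hydroxybutyrate, lay at 37.5, 34.3, 46.2 and 40.8 CPM in Δ/+ US and 225, 217 and 223 CPM in Δ/+ LPS libraries. The Δ/DN libraries had 30, 21.2, 48.1 and 26 CPM in US and 155, 116, 150 and 112 CPM in LPS libraries. All LPS values exceeded all US values, and with LPS all Δ/DN values were under all Δ/+ values. The LPS effects were 2.53 ± 0.22 (adjusted p = 6.0e-07) and 2.11 ± 0.21 (adjusted p = 1.8e-06), and the genotype difference with LPS was -0.82 ± 0.23 (adjusted p = 0.0408). Hcar2 with LPS was called in 2 of 7 such refits, not without Δ/+ LPS replicates 1, 2 or 3, nor Δ/DN LPS replicates 2 or 4 (adjusted p up to 0.136), and lay at -0.71 (adjusted p = 0.031) in library set 2 alone. Gpr84, a receptor for medium-chain fatty acids, lay at 28.7, 26.9, 32.6 and 15.6 CPM in Δ/+ US and 105, 83.3 and 132 CPM in Δ/+ LPS libraries. In the Δ/DN cultures it lay at 25, 19.9, 34.4 and 22.9 CPM in US and 102, 118, 99 and 129 CPM in LPS libraries. Treatments did not overlap, and the changes were 2.03 ± 0.24 (adjusted p = 1.3e-05) and 2.13 ± 0.23 (adjusted p = 5.9e-06). Ffar2, a receptor for short-chain fatty acids, fell from a mean of 4.33 to 0.964 CPM in Δ/+ and from 7.3 to 2 CPM in Δ/DN. Gpr35, for which kynurenic acid is a proposed ligand, fell by 1.39 and by 1.65 on the log2 scale.

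The Gpr31 genes, related to a receptor for an arachidonic acid metabolite, are near-identical copies whose reads cannot be assigned with certainty. Gpr31b lay at 0.131, 0.0954, 0.194 and 0.0233 CPM in Δ/+ US and 2.15, 4.37 and 3.82 CPM in Δ/+ LPS libraries. Values in Δ/DN were 0.267, 0.326, 0.429 and 0.307 CPM in US and 3.84, 5.61, 2.93 and 4.1 CPM in LPS libraries. The LPS values lay well above the US values, by 4.86 ± 0.43 (adjusted p = 4.0e-07) and 3.60 ± 0.37 (adjusted p = 1.9e-06), and without LPS all Δ/DN values lay above all Δ/+ values, by 1.69 ± 0.44 (adjusted p = 0.0275). Without LPS Gpr31b was called in 3 of 8 such refits, not without Δ/+ US replicates 1, 2 or 4, nor Δ/DN US replicates 2 or 4 (adjusted p up to 0.133), and lay at 1.02 (adjusted p = 0.195) in library set 2 alone. Gpr31a, annotated as a processed pseudogene, lay at 0.0436, 0.0477, 0.204 and 0.0466 CPM in Δ/+ US and 2.3, 4.32 and 4.29 CPM in Δ/+ LPS libraries. Δ/DN cells gave 0.146, 0.27, 0.26 and 0.048 CPM in US and 3.85, 6.09, 4.21 and 5.55 CPM in LPS libraries. It rose by 5.19 ± 0.54 (adjusted p = 2.2e-06) and 4.81 ± 0.49 (adjusted p = 2.0e-06), and Gpr31c by 4.10 and 3.66.

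Among proton-sensing receptors, Gpr132 and Gpr4 rose and Gpr65 fell in both genotypes. Gpr132 lay at 75, 69.6, 60.4 and 51.1 CPM in Δ/+ US and 154, 169 and 150 CPM in Δ/+ LPS libraries. In Δ/DN it lay at 67.3, 61.7, 64 and 49.8 CPM in US and 133, 136, 162 and 116 CPM in LPS libraries. The treatments did not overlap and the genotypes did, with LPS effects of 1.26 ± 0.13 (adjusted p = 2.3e-06) and 1.18 ± 0.12 (adjusted p = 2.5e-06) and a genotype difference of -0.03 ± 0.13 (adjusted p = 0.903) without LPS. Gpr4 was scarce, at 0.284, 0.0477, 0.13 and 0.0233 CPM in Δ/+ US and 0.682, 0.387 and 0.956 CPM in Δ/+ LPS libraries. Its Δ/DN values were 0.0971, 0.09, 0.052 and 0.0384 CPM in US and 1.17, 1.57, 0.955 and 0.343 CPM in LPS libraries. All LPS values lay above all US values, by 2.40 ± 0.54 (adjusted p = 0.00184) and 3.85 ± 0.54 (adjusted p = 3.4e-05). Gpr65 lay at 32.7, 32, 36.3 and 15.6 CPM in Δ/+ US and 25.6, 20.6 and 17.6 CPM in Δ/+ LPS libraries. The Δ/DN libraries had 36.7, 34.5, 33.8 and 24.4 CPM in US and 23.7, 23.4, 18.4 and 20.7 CPM in LPS libraries. In Δ/+ replicate 4 without LPS was the lowest of all libraries, in Δ/DN the treatments parted, and the effects were -0.53 ± 0.18 (adjusted p = 0.0218) and -0.58 ± 0.16 (adjusted p = 0.00724). In Δ/+ Gpr65 was called in 2 of 7 such refits, not without Δ/+ LPS replicates 2 or 3, nor Δ/+ US replicates 1, 2 or 3 (adjusted p up to 0.11), and in Δ/DN its adjusted p was 0.0566 without culture 3.

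Adhesion receptors carry long extracellular domains, and 7 of the 18 tested rose with LPS in each genotype. Without LPS 5 of the 18 (27.8%) were higher and 1 (5.56%) was lower in Δ/DN, beside 5.01% and 5.45% of all genes tested. Adgre4, a myeloid adhesion receptor of the family of the macrophage antigen Adgre1, lay at 4.08, 4.08, 5.03 and 1.25 CPM in Δ/+ US and 10.3, 23.1, 6.74 and 12.7 CPM in Δ/DN US libraries. LPS libraries had 8.58, 6.87 and 15.6 CPM in Δ/+ and 28.9, 59.9, 13.4 and 33.8 CPM in Δ/DN. Without LPS all Δ/DN values were above all Δ/+ values, and with LPS Δ/DN replicate 3 (13.4 CPM) fell below Δ/+ replicate 3 (15.6 CPM). The genotype differences were 2.22 ± 0.44 (adjusted p = 0.0132) and 2.18 ± 0.49 (adjusted p = 0.0231). Without LPS Adgre4 was called in 6 of 8 such refits, not without Δ/+ US replicate 4, nor Δ/DN US replicate 2 (adjusted p up to 0.0811), and lay at 1.91 (adjusted p = 0.0527) in library set 2 alone. With LPS it was called in 4 of 7 such refits, not without Δ/+ LPS replicates 1 or 2, nor Δ/DN LPS replicate 2 (adjusted p up to 0.121), and lay at 2.10 (adjusted p = 0.0316) in library set 2 alone. LPS raised it by 1.38 ± 0.44 (adjusted p = 0.0208) in Δ/+, not without Δ/+ LPS replicate 3 (adjusted p = 0.125), and by 1.34 ± 0.40 (adjusted p = 0.015) in Δ/DN, not without Δ/DN LPS replicate 4 (adjusted p = 0.0682).

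Adgrl2, a latrophilin, was lower in Δ/DN under both treatments. It lay at 89.9, 110, 49.6 and 126 CPM in Δ/+ US and 23.1, 22.7, 32.4 and 29.2 CPM in Δ/DN US libraries. The values with LPS were 246, 268 and 118 CPM in Δ/+ and 47, 39.5, 83.4 and 33.1 CPM in Δ/DN. Every Δ/DN value lay under every Δ/+ value of the same treatment, with differences of -1.92 ± 0.33 (adjusted p = 0.00856) and -2.31 ± 0.37 (adjusted p = 0.00788). Without LPS Adgrl2 was called in 7 of 8 such refits, not without Δ/+ US replicate 4 (adjusted p up to 0.0542), and lay at -1.88 (adjusted p = 0.0437) in library set 2 alone. With LPS it was called in 6 of 7 such refits, not without Δ/+ LPS replicate 2 (adjusted p up to 0.053), and lay at -2.28 (adjusted p = 0.0211) in library set 2 alone. LPS raised it by 1.31 ± 0.34 (adjusted p = 0.00714) in Δ/+ and by 0.92 ± 0.32 (adjusted p = 0.03) in Δ/DN, where it was called in 3 of 8 such refits, not without Δ/DN LPS replicates 1 or 3, nor Δ/DN US replicates 1, 2 or 4 (adjusted p up to 0.121). Adgrg6, known from the myelination of nerves, lay at 61.1, 42.2, 47.9 and 16.1 CPM in Δ/+ US and 121, 92.3 and 133 CPM in Δ/+ LPS libraries. In the Δ/DN cultures it lay at 57.4, 65.9, 34.4 and 39.3 CPM in US and 177, 178, 127 and 109 CPM in LPS libraries. The LPS values lay above the US values in both genotypes, and the genotypes overlapped. It rose by 1.35 ± 0.20 (adjusted p = 6.4e-05) and 1.61 ± 0.19 (adjusted p = 8.2e-06), and its genotype difference with LPS was 0.78 ± 0.22 (adjusted p = 0.0429). Adgrg6 with LPS was called in 2 of 7 such refits, not without Δ/+ LPS replicates 1 or 2, nor Δ/DN LPS replicates 2, 3 or 4 (adjusted p up to 0.181), and lay at 0.62 (adjusted p = 0.0453) in library set 2 alone. With no library set term the difference was 0.35 (adjusted p = 0.606).

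Several adhesion receptors were scarce and differed between genotypes without LPS. Adgrg5 lay at 0.262, 0.0119, 0.213 and 0.0233 CPM in Δ/+ US and 0.837, 7.23, 0.325 and 0.346 CPM in Δ/DN US libraries. Replicate 2 of Δ/DN stood far above the other 3, which still exceeded the Δ/+ values. With LPS it lay at 0.15, 0.0322 and 0.0785 CPM in Δ/+ and 0.234, 0.843, 0.112 and 0.0473 CPM in Δ/DN. The difference without LPS was 4.47 ± 0.82 (adjusted p = 0.00905), and Adgrg5 was called in 7 of 8 such refits, not without Δ/DN US replicate 2 (adjusted p up to 0.0677), and lay at 4.68 (adjusted p = 0.0416) in library set 2 alone. It fell with LPS in Δ/DN, at -2.58 ± 0.75 (adjusted p = 0.0114), but not without Δ/DN US replicate 2 (adjusted p = 0.133). Adgrl3, a latrophilin, lay at 0.218, 0.0358, 0.222 and 0.256 CPM in Δ/+ US and 1.1, 0.45, 0.793 and 0.864 CPM in Δ/DN US, and at 0.286, 0.0645 and 0.144 CPM in Δ/+ and 0.751, 0.163, 0.281 and 0.945 CPM in Δ/DN with LPS. Its US groups did not overlap, and the difference was 2.07 ± 0.62 (adjusted p = 0.0459). Adgrl3 was called in 1 of 8 such refits, not without Δ/+ US replicates 1, 2, 3 or 4, nor Δ/DN US replicates 1, 2 or 4 (adjusted p up to 0.152), and lay at 2.28 (adjusted p = 0.121) in library set 2 alone. Adgrf1, a receptor for an ethanolamide of docosahexaenoic acid, lay at 0.0436, 0.0239, 0.0833 and 0.0116 CPM in Δ/+ US and 0.158, 0.214, 0.104 and 0.125 CPM in Δ/DN US libraries. After LPS the values were 0.273, 0.322 and 0.563 CPM in Δ/+ and 0.584, 1.69, 0.309 and 0.851 CPM in Δ/DN. The US groups did not overlap, at a difference of 2.07 ± 0.58 (adjusted p = 0.0371), and LPS raised it by 2.99 ± 0.58 (adjusted p = 0.000551) in Δ/+ and 2.47 ± 0.47 (adjusted p = 0.000535) in Δ/DN. Between genotypes Adgrf1 was called in 2 of 8 such refits, not without Δ/+ US replicates 1, 2 or 4, nor Δ/DN US replicates 1, 2 or 4 (adjusted p up to 0.155), and lay at 1.76 (adjusted p = 0.148) in library set 2 alone.

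Adgrb1, a phosphatidylserine receptor for the uptake of dying cells, lay at 0, 0.0119, 0.0185 and 0.0466 CPM in Δ/+ US and 0.146, 0.281, 0.052 and 0.0384 CPM in Δ/DN US libraries. LPS libraries had 0.3, 0.193 and 0.209 CPM in Δ/+ and 0.534, 0.651, 0.281 and 0.768 CPM in Δ/DN. The US ranges crossed, with Δ/+ replicate 4 above Δ/DN replicate 4, the difference was 2.49 ± 0.74 (adjusted p = 0.0456), and the LPS effects were 3.18 ± 0.78 (adjusted p = 0.00332) and 2.24 ± 0.59 (adjusted p = 0.00573). Between genotypes Adgrb1 was called in 2 of 8 such refits, not without Δ/+ US replicates 1, 2, 3 or 4, nor Δ/DN US replicates 1 or 2 (adjusted p up to 0.189), and lay at 3.94 (adjusted p = 0.0161) in library set 2 alone. Adgrg7 rose from 0.0436, 0.0477, 0.111 and 0 CPM to 0.668, 0.806 and 0.943 CPM in Δ/+ and from 0, 0.045, 0.182 and 0.134 to 0.701, 0.666, 0.491 and 0.732 CPM in Δ/DN. All LPS values lay above all US values, and the changes were 3.92 ± 0.78 (adjusted p = 0.000705) and 2.89 ± 0.72 (adjusted p = 0.00362). Adgre1 rose from a mean of 76.2 to 163 CPM in Δ/+ and from 92.4 to 175 CPM in Δ/DN, and Adgre5, which encodes the leukocyte antigen CD97, fell by 0.94 and by 0.89 on the log2 scale.

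Orphan receptors and those outside the other families numbered 24, of which 8 rose in each genotype and 5 fell in Δ/+ and 4 in Δ/DN. Gpr160 lay at 18.2, 18.8, 23.3 and 19.5 CPM in Δ/+ US and 1.94, 1.11 and 2.17 CPM in Δ/+ LPS libraries. Values in Δ/DN were 29.1, 30.8, 18.4 and 33 CPM in US and 4.59, 5.83, 2.6 and 5.6 CPM in LPS libraries. LPS values were far under US values, and with LPS all Δ/DN values lay above all Δ/+ values. The LPS effects were -3.57 ± 0.31 (adjusted p = 6.3e-07) and -2.58 ± 0.26 (adjusted p = 2.2e-06), and the genotype difference was 1.51 ± 0.30 (adjusted p = 0.0141) with and 0.53 ± 0.25 (adjusted p = 0.192) without LPS. With LPS Gpr160 was called in 4 of 7 such refits, not without Δ/+ LPS replicates 1 or 2, nor Δ/DN LPS replicate 2 (adjusted p up to 0.0792), and lay at 1.57 (adjusted p = 0.00742) in library set 2 alone. Gpr146, known from cholesterol handling in the liver, fell from 35.2 ± 5.11 CPM (SD, n = 4) to 2.36 ± 0.231 CPM (n = 3) in Δ/+ and from 41 ± 6.75 to 3.15 ± 2 CPM (n = 4 each) in Δ/DN. Gpr85 rose from 17 ± 4.36 to 104 ± 24.9 CPM in Δ/+ (n = 4 and 3), a change of 2.55 ± 0.22 (adjusted p = 6.3e-07), beside 2.17 ± 0.21 (adjusted p = 1.5e-06) in Δ/DN. Gpr141, which has a near-identical copy in Gpr141b, rose by 1.61 and 1.30.

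Gpr171 was lower in Δ/DN under both treatments. It lay at 65.3, 69, 81.2 and 89.9 CPM in Δ/+ US and 43.9, 57.1, 62.8 and 49.9 CPM in Δ/DN US libraries. The values with LPS were 46.2, 51.4 and 53.3 CPM in Δ/+ and 38.2, 36.4, 35.8 and 31.2 CPM in Δ/DN. No Δ/DN value reached a Δ/+ value of its treatment, and the differences were -0.54 ± 0.12 (adjusted p = 0.0172) and -0.55 ± 0.14 (adjusted p = 0.0293). Without LPS Gpr171 was called in 6 of 8 such refits, not without Δ/+ US replicate 4, nor Δ/DN US replicate 1 (adjusted p up to 0.128), and lay at -0.53 (adjusted p = 0.0418) in library set 2 alone. With LPS it was called in 3 of 7 such refits, not without Δ/+ LPS replicates 1, 2 or 3, nor Δ/DN LPS replicate 2 (adjusted p up to 0.121), and lay at -0.43 (adjusted p = 0.0648) in library set 2 alone. LPS lowered it, at -0.58 ± 0.13 (adjusted p = 0.00237) and -0.59 ± 0.12 (adjusted p = 0.000911). Gpr176, a Gz-coupled receptor known from the circadian clock, lay at 3.6, 2.11, 2.2 and 1.56 CPM in Δ/+ US and 4.16, 2.97, 5.09 and 3.72 CPM in Δ/DN US libraries. With LPS it lay at 1.5, 1.16 and 2.36 CPM in Δ/+ and 6.72, 5.71, 4.58 and 4.47 CPM in Δ/DN, where the groups did not overlap. The difference was 1.79 ± 0.32 (adjusted p = 0.00885) with and 0.85 ± 0.28 (adjusted p = 0.0656) without LPS. Gpr176 with LPS was called in 6 of 7 such refits, not without Δ/+ LPS replicate 2 (adjusted p up to 0.0603), and lay at 1.89 (adjusted p = 0.0092) in library set 2 alone.

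Gpr15, a homing receptor of T cells that overlaps Cpox, lay at 1.94, 1.55, 2.05 and 1.86 CPM in Δ/+ US and 2.17, 3.42, 4.71 and 3.89 CPM in Δ/DN US libraries. After LPS the values were 2.63, 3.77 and 2.72 CPM in Δ/+ and 3.35, 3.24, 4.93 and 2.46 CPM in Δ/DN. The groups parted without LPS, at 0.84 ± 0.25 (adjusted p = 0.0435), and overlapped with LPS, at 0.05 ± 0.27 (adjusted p = 0.932). Without LPS Gpr15 was called in 2 of 8 such refits, not without Δ/+ US replicates 1, 2 or 4, nor Δ/DN US replicates 2, 3 or 4 (adjusted p up to 0.21), and lay at 0.58 (adjusted p = 0.207) in library set 2 alone. LPS raised it in Δ/+ by 0.78 ± 0.26 (adjusted p = 0.0207), where it was called in 5 of 7 such refits, not without Δ/+ LPS replicate 2, nor Δ/+ US replicate 2 (adjusted p up to 0.109), and the change in Δ/DN was 0.00 ± 0.23 (adjusted p = 0.997). Gpr33, a chemoattractant-type receptor gene, lay at 0.0873, 0, 0.037 and 0 CPM in Δ/+ US and 0.573, 0.387 and 0.524 CPM in Δ/+ LPS libraries. Δ/DN cells gave 0.0728, 0.045, 0.052 and 0.163 CPM in US and 1.69, 1.04, 1.83 and 0.969 CPM in LPS libraries. The LPS values were above all US values, which were at or near the counting floor, and the rise was called in both genotypes. The fitted change in Δ/+ was 4.21 ± 0.74 (adjusted p = 0.000238), and fitted changes from so few US reads depend on the prior count.

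Of the 8 intracellular or atypical 7-transmembrane proteins, 2 rose with LPS in each genotype and 3 fell in Δ/+ and 4 in Δ/DN. Gpr137b, a lysosomal membrane protein with a related pseudogene, lay at 104, 107, 91.7 and 137 CPM in Δ/+ US and 79.7, 48.4, 83.2 and 66.4 CPM in Δ/DN US libraries, without overlap. LPS libraries had 49.4, 40.6 and 40.6 CPM in Δ/+ and 48.6, 39.1, 50.4 and 52.9 CPM in Δ/DN, where the groups overlapped. The difference was -0.73 ± 0.14 (adjusted p = 0.00971) without and -0.02 ± 0.16 (adjusted p = 0.959) with LPS. Without LPS Gpr137b was called in 7 of 8 such refits, not without Δ/+ US replicate 4 (adjusted p up to 0.0746), and lay at -0.67 (adjusted p = 0.0636) in library set 2 alone. LPS lowered it, at -1.25 ± 0.16 (adjusted p = 1.2e-05) in Δ/+ and -0.54 ± 0.14 (adjusted p = 0.00459) in Δ/DN. Gpr89, a Golgi pH regulator, lay at 24.7, 24.7, 24.2 and 31.8 CPM in Δ/+ US and 20.6, 21.3, 20 and 23.5 CPM in Δ/DN US libraries. The groups were close but did not overlap, and Δ/+ replicate 4 stood above the rest. The values with LPS were 12.2, 12.3 and 10.6 CPM in Δ/+ and 11.1, 10.3, 11 and 13.2 CPM in Δ/DN. The genotype difference was -0.34 ± 0.10 (adjusted p = 0.0361), and Gpr89 was called in 2 of 8 such refits, not without Δ/+ US replicates 1, 2 or 4, nor Δ/DN US replicates 1, 2 or 4 (adjusted p up to 0.21), and lay at -0.25 (adjusted p = 0.199) in library set 2 alone. LPS lowered it, at -1.12 ± 0.11 (adjusted p = 9.4e-07) and -0.91 ± 0.10 (adjusted p = 2.4e-06).

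Gpr137, which overlaps Bad, lay at 8.86, 8.83, 8.12 and 7.3 CPM in Δ/+ US and 10.3, 10.5, 10.3 and 11 CPM in Δ/DN US libraries. With LPS it lay at 7.1, 8.09 and 8 CPM in Δ/+ and 7.84, 9.32, 7.88 and 8.81 CPM in Δ/DN. The US groups did not overlap, at a difference of 0.36 ± 0.10 (adjusted p = 0.0401), and Gpr137 was called in 1 of 8 such refits, not without Δ/+ US replicates 1, 2, 3 or 4, nor Δ/DN US replicates 1, 2 or 4 (adjusted p up to 0.241), and lay at 0.26 (adjusted p = 0.288) in library set 2 alone. In Δ/DN it fell with LPS, at -0.31 ± 0.10 (adjusted p = 0.0187), where it was called in 5 of 8 such refits, not without Δ/DN LPS replicates 1 or 3, nor Δ/DN US replicate 4 (adjusted p up to 0.0656), and the change in Δ/+ was -0.11 ± 0.11 (adjusted p = 0.448). Gpr180 lay at 7.53, 6.92, 6.32 and 8.73 CPM in Δ/+ US and 1.83, 2.37 and 1.06 CPM in Δ/+ LPS libraries, and at 6.53, 6.12, 5.41 and 5.7 CPM in US and 1.52, 1.45, 1.7 and 1.93 CPM in LPS libraries of Δ/DN. All LPS values lay under all US values, with changes of -2.04 ± 0.23 (adjusted p = 4.8e-06) and -1.86 ± 0.21 (adjusted p = 3.9e-06). Gpr107 was called in no comparison and lay at means of 58.7 to 62.6 CPM.

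Whether the LPS effect itself differed between genotypes was tested by the difference of the 2 effects. None of the 100 members passed in edgeR without a replicate block, either higher (0% of all genes) or lower (0.00479% of all genes), and 15 had an unadjusted p under 0.05. With the culture code shared by US and LPS libraries as a replicate block, edgeR called 4 members, all with a positive difference, Δ/DN minus Δ/+: Cnr2 at 1.42 (adjusted p = 0.0256), Gpr160 at 0.94 (adjusted p = 0.0452), Gpr157 at 0.83 (adjusted p = 0.0441) and Gpr137b at 0.69 (adjusted p = 0.0441). Cnr2, Gpr160 and Gpr137b fell with LPS in both genotypes, and fell less in Δ/DN. Within cultures Gpr157 had log2 ratios of 0.37 to 1.03 in Δ/DN and -0.42 to 0.05 in Δ/+. The share of all genes called with the block is not given here. DESeq2 called 1 member, Lpar2, at 1.13 (adjusted p = 0.0392). The edgeR differences of effect were 1.13 ± 0.29 (adjusted p = 0.256) for Lpar2, 0.73 ± 0.21 (adjusted p = 0.292) for Ptger4, 1.42 ± 0.42 (adjusted p = 0.332) for Cnr2 and -1.03 ± 0.31 (adjusted p = 0.329) for Hrh2. For Lpar2 and Ptger4 the LPS call in 1 genotype only is therefore not shown to be a difference between genotypes in edgeR, with or without the block. Of the 11 members with an LPS call in 1 genotype only, Gpr157 alone was called for the difference with the block. Within cultures Lpar2 was higher with LPS in all 4 Δ/DN cultures, with log2 ratios of 0.91, 0.61, 1.51 and 0.67, whereas the 3 Δ/+ cultures lay at -0.15, -0.62 and 0.00.

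**Figure D4:**
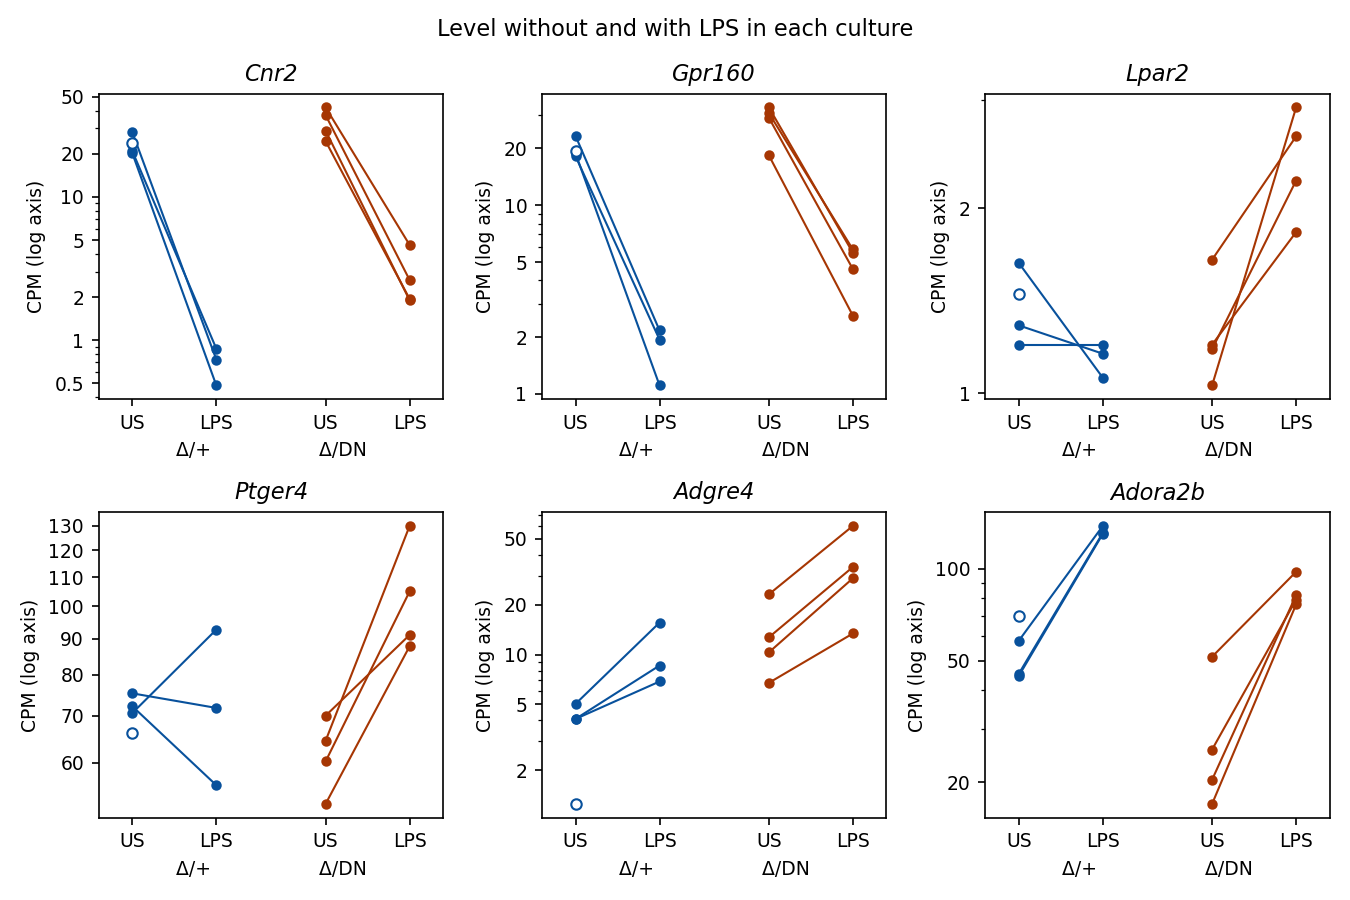
CPM (log axes) of 6 members without and with LPS, a line per culture, Δ/+ in blue and Δ/DN in brown; the open circle is the Δ/+ culture with no LPS library. Cnr2 and Gpr160 fall in all 7 cultures, Adgre4 and Adora2b rise in all 7, and Lpar2 rises in the 4 Δ/DN cultures.

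The machinery that acts behind the receptors was also described, from lists of textbook components. Of 9 genes of GRKs, arrestins and the arrestin-like Arrdc2 and Arrdc3, 7 fell with LPS in each genotype, beside 25.3% and 25.1% of all genes. In Δ/+ 0 rose and in Δ/DN 1, Grk3, rose, and the list's median log2 changes were -1.13 and -1.16. Arrb1, which encodes beta-arrestin 1, fell from 198 ± 7.2 CPM (SD, n = 4) to 35.1 ± 5.89 CPM (n = 3) in Δ/+ and from 254 ± 59.7 to 83.8 ± 24 CPM (n = 4 each) in Δ/DN. Its changes were -2.57 ± 0.22 (adjusted p = 4.0e-07) and -1.60 ± 0.19 (adjusted p = 7.7e-06), and with LPS it was higher in Δ/DN by 1.38 ± 0.22 (adjusted p = 0.00582). The kinase genes Grk6 and Grk5 changed by -1.59 ± 0.15 (adjusted p = 8.8e-07) and -1.90 ± 0.19 (adjusted p = 1.3e-06) in Δ/+, and the arrestin-like gene Arrdc3 by -1.98 ± 0.30 (adjusted p = 8.5e-05). Of 12 RGS genes tested, 4 rose (33.3%) and 3 fell (25%) in each genotype. Over all genes tested 22.4% rose and 25.3% fell in Δ/+, and 23.1% and 25.1% in Δ/DN. Rgs1, a brake on Gi signalling, rose from 32 ± 5.91 CPM (SD, n = 4) to 305 ± 46.3 CPM (n = 3) in Δ/+, by 3.22 ± 0.26 (adjusted p = 3.2e-07), and by 3.33 ± 0.25 (adjusted p = 1.9e-07) in Δ/DN.

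Of 9 G protein alpha subunit genes tested, 3 rose and 4 fell in Δ/+, and 4 rose and 3 fell in Δ/DN. For this list and the next, the shares of all genes tested were 22.4% rising and 25.3% falling in Δ/+. In Δ/DN they were 23.1% and 25.1%. Gna13 rose by 1.16 ± 0.15 (adjusted p = 1.3e-05) and Gnai3 by 0.62 ± 0.09 (adjusted p = 5.1e-05) in Δ/+, while Gna12 changed by -1.01 ± 0.11 (adjusted p = 2.4e-06). Of 16 adenylyl cyclase and cyclic AMP phosphodiesterase genes tested, 3 rose and 7 fell in Δ/+ (18.8% and 43.8%). In Δ/DN 2 rose and 6 fell (12.5% and 37.5%). Pde4b, a phosphodiesterase gene, rose by 2.53 ± 0.12 (adjusted p = 2.4e-09) in Δ/+ and 2.60 ± 0.11 (adjusted p = 1.2e-09) in Δ/DN, whereas the cyclase gene Adcy9 changed by -2.09 ± 0.16 (adjusted p = 1.4e-07) and -1.79 ± 0.14 (adjusted p = 1.9e-07). Without LPS 5 genes of this list (31.2%) were lower in Δ/DN and 1 (6.25%) was higher, beside 5.45% and 5.01% of all genes tested. Pde8a differed by -0.91 ± 0.09 (adjusted p = 0.000477) and Pde3b by -1.17 ± 0.18 (adjusted p = 0.0045).

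Enzymes that make or clear receptor ligands moved both ways: of 28 tested, 11 rose and 8 fell in Δ/+, and 10 rose and 9 fell in Δ/DN. In Δ/+ that was 39.3% and 28.6%, beside 22.4% and 25.3% of all genes. In Δ/DN it was 35.7% and 32.1%, beside 23.1% and 25.1%. Ptgs2, the inducible cyclooxygenase of prostaglandin synthesis, went from 4.78 ± 2.53 CPM (SD, n = 4) to 4380 ± 893 CPM (n = 3) in Δ/+ and from 4.61 ± 3.8 to 3173 ± 801 CPM (n = 4 each) in Δ/DN. Ptges, the synthase of prostaglandin E2, rose by 4.41 ± 0.26 (adjusted p = 2.7e-08) and 3.72 ± 0.25 (adjusted p = 6.9e-08). Hdc, which makes histamine, rose by 7.06 ± 0.43 (adjusted p = 7.1e-08) and 5.68 ± 0.38 (adjusted p = 2.0e-07). Mgll, which breaks down an endocannabinoid, changed by -1.91 ± 0.14 (adjusted p = 1.0e-07) in Δ/+ and -1.11 ± 0.12 (adjusted p = 4.4e-06) in Δ/DN, and with LPS it was higher in Δ/DN by 0.69 ± 0.14 (adjusted p = 0.0149).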

How the data were processed

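RNA of 15 libraries was sequenced, and the authors deposited unnormalized counts for each gene beside its length. Tools listed by the submitters' processing notes, without roles, were HISAT2 2.2.1, Trimmomatic 0.33, featureCounts, bedtools, FastQC and edgeR, with the builds mm39 and GRCm39; strand use is not given in the sources used here. From the counts, edgeR 4.0.16 (R 4.3.3, limma 3.58.1) fitted a quasi-likelihood model to all groups with library set as a term, after filterByExpr (minimum count 10) and TMM, over 20865 genes. The model was also run on simulated counts without an LPS effect, a library set effect or shared cultures. The outcome is not given here. CPM are TMM-scaled. Levels per length are printed by merged exons.

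Members and lists were chosen with earlier results of these data known. Values in every library are given for 45 members: those called between genotypes, the 2 largest LPS changes of each role and the 10 highest levels per kilobase of deposited length. In signalling lists up to 4 genes with the smallest p per comparison could be named. DESeq2 1.42.0, other filters and terms, a replicate block and left-out libraries were alternatives.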

Additional observations from a re-analysis of the deposited data

Results flagged for a closer look

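In 13 of 306 groups of 4 libraries over all 102 receptor genes, 1 library lay far from the other 3; about 1 in 20 groups is marked in this way by chance. In replicate 2 of Δ/DN US Adgrg5 reached 7.23 CPM, where the others lay between 0.325 and 0.837 CPM. In the same library P2ry12 lay at 4.16 CPM, against 1.95 to 2.3 CPM in the others. In Δ/+ US replicate 3 Lpar5 lay at 6.39 CPM (others 2.82 to 3.38), Gpr18 at 0.999 CPM (others 0.72 to 0.728), Gpr31a at 0.204 CPM (others 0.0436 to 0.0477) and S1pr2 at 33.8 CPM (others 29.2 to 29.6). Replicate 4 of Δ/+ US was the highest of its group for Gpr89 at 31.8 CPM (others 24.2 to 24.7), P2ry1 at 27.9 CPM (others 14.2 to 15.6), P2ry2 at 12.5 CPM (others 5.54 to 6.18) and S1pr4 at 3.56 CPM (others 1.96 to 2.04). Culture 4 of Δ/DN stood apart for 3 genes. Gpr157 was lowest there without LPS at 10.7 CPM (others 16.5 to 17.6), and with LPS Ffar2 was highest at 4.23 CPM (others 1.01 to 1.41), as was Ptger3 at 0.39 CPM (others 0.0296 to 0.0667).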

How the results depend on the processing

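The member counts for LPS in either genotype stayed within 1.5 times under every alternative run, and no named change reversed its sign. Genotype counts moved. Without LPS the 14 higher became 5 with no library set term, 7 in library set 2 alone, 9 without Δ/DN culture 4 and 1 to 16 with 1 library left out, and the 6 lower became 3 with no set term and 0 to 8 with 1 library left out. With LPS the 8 higher became 18 in DESeq2 and 0 to 10 with 1 library left out, and the 5 lower became 3 with no low-count filter, 3 with no set term and 1 to 7 with 1 library left out. With no library set term Adgrb1, Adgre4, Adgrf1, Adgrg5, Adgrl3, Adora2b, Cysltr1, Gpr137, Gpr89, Lpar5, P2ry12 and Ptger2 lost their genotype call without LPS. With LPS that setting lost Adgre4, Adgrg6, Adora2b, Hcar2 and Ptger4. With no low-count filter Cysltr1, Gpr137, Gpr89 and Lpar5 lost their genotype call without LPS, and Adgrg6, Adora2b, Hcar2 and Lpar2 with LPS. For the difference of LPS effects DESeq2 called 1 member higher. The cause was not tested. Levels per kilobase by deposited length were 13.4 for Gpr132, 13.3 for Gpr84 and 12.4 for P2ry14, and by merged exons 37.3, 37.6 and 16.4.

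With a replicate block 23 members were higher and 8 lower without LPS, 20 and 7 with LPS, 34 rose and 28 fell in Δ/+, 39 rose and 30 fell in Δ/DN, and the difference of effects was called positive for 4 (Cnr2, Gpr137b, Gpr157 and Gpr160). The shares of all genes printed above belong to the edgeR fit without a block. Whether the members stand out from all genes under the block or another alternative cannot be told from these counts. The block was the culture code for LPS effects and their difference, and the replicate number between genotypes. US and LPS libraries of 1 code correlated in their deviations at 0.0643 to 0.428, and 6 of 7 best matched their own; same numbers across genotypes correlated at -0.0885 to 0.146, and 2 of 7 did. The numbers were therefore not taken to pair samples across genotypes.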
